A study of Sus scrofa with 6 samples.

Results

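Mitochondria fold and clear their own proteins with a set of chaperones and proteases that differs from those of the cytosol. In the matrix, HSPA9 (mortalin, the mitochondrial HSP70) pulls in and folds imported proteins with the J protein DNAJA3 and the exchange factor GRPEL1. The HSPD1 chaperonin ring (HSP60) with its lid HSPE1 (HSP10) folds them further, and the proteases LONP1 and ClpXP degrade those that fail. These genes are known targets of the mitochondrial unfolded protein response, in which the nucleus answers protein damage in mitochondria, and in human cells HSPD1 and HSPE1 are also known as heat shock genes.

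The genes described here were chosen by name from this machinery, with earlier results of these data known: 10 symbols, namely HSPD1, HSPE1, HSPA9, TRAP1, GRPEL1, DNAJA3, LONP1, CLPP, CLPX and CLPB. Of these, 9 matched a pig Ensembl identifier among the 35670 of the count table, and all 9 had enough reads to be tested among 14242 genes. GRPEL1 matched none and was not analysed here. CLPB acts in the intermembrane space, while the others act mainly in the matrix.

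Stranded mRNA sequencing was used on primary cultures of granulosa cells, which nurse the oocyte within the ovarian follicle, from the pig (Sus scrofa). They came from the fluid of follicles of 3 to 6 mm and were grown in medium with serum. The heat group (n = 3) spent 6 h at 42 °C and the control group (n = 3) the same time at 37 °C. The labels number the libraries as biological replicates without naming animals or cultures, so the p-values measure only the spread between these libraries.

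Library totals were 20411952 to 29606378 counts in heat and 18711440 to 22599356 in control. Heat 1 and heat 2 were near-identical across genes (Pearson r = 0.994 of log2 CPM, which are reads relative to library size, with TMM factors), as were control 2 and control 3 (r = 0.993). Heat 3 and control 1 stood apart from their groups. By this correlation they were closest to each other (r = 0.932), whereas by a chi-square of the counts per degree of freedom heat 3 was nearest to heat 2 (380, against 554 to control 1) and control 1 was also nearest to heat 2 (349). The labelled cell type was checked against 14 markers of granulosa cells, of which 12 matched, while CYP19A1 and FOXL2 did not. FSHR, AMH, AMHR2, INHA and HSD17B1 averaged below 1 CPM. INHBA stood at 183, 154 and 182 CPM in heat, against 387, 209 and 198 CPM in control, and CYP11A1 was present in every library. Of the 7 granulosa markers tested none was called, with 5 log2 fold changes positive and 2 negative (median 0.84). The 12 summed to 352 to 411 CPM in heat and 274 to 512 CPM in control. Stromal markers were abundant, with a summed level of 13454 to 46294 CPM in heat and 3959 to 33382 CPM in control. Markers of smooth muscle and pericytes summed to 5902 to 12014 CPM in heat and 8042 to 9410 CPM in control. Leukocyte markers summed to 1.25 to 4.34 CPM in heat and 3.20 to 61.3 CPM in control, with PTPRC at 0 in every heat library and in control 1. Of the 3 leukocyte markers tested, LYZ was called lower in heat. Whether their variation bears on the genes below was not tested. In such bulk samples, fewer cells of a type and less RNA per cell cannot be told apart.

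None of the 9 mitochondrial chaperone and protease genes passed the test between heat and control. Only CLPX came near, with less RNA in every heat library than in any control. The core folding genes HSPD1 and HSPA9 had nearly equal group means, and DNAJA3 and LONP1 were slightly higher in every heat library. Across all tested genes, 11.0% were called (edgeR quasi-likelihood test, Benjamini-Hochberg adjusted p below 0.05), 6.71% higher and 4.32% lower in heat. At an unadjusted p below 0.05, 1 of the 9 passed (CLPX), against 33.9% of all tested genes, and with DESeq2 1 of the 9 was called (CLPX), against 27.5% of all tested genes. The median log2 fold change of the 9 genes was 0.18, against 0.05 for all tested genes. Together they took 0.0844 ± 0.0136% of the counts in heat and 0.0799 ± 0.0156% in control (SD, n = 3).

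**Figure D1:**
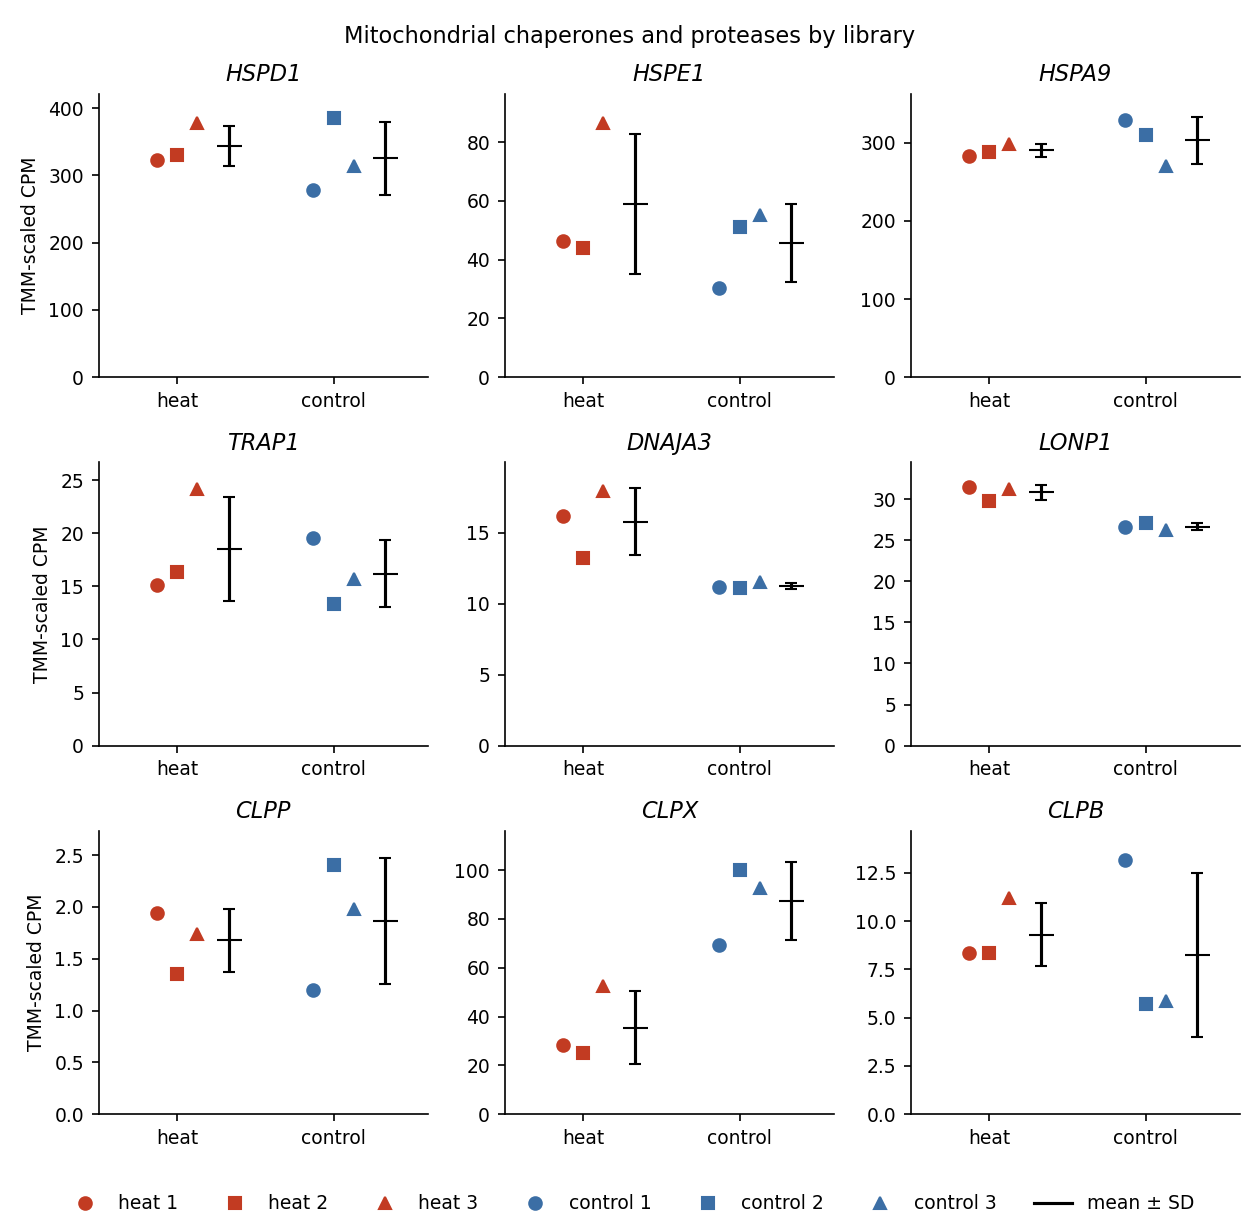
TMM-scaled CPM of each gene (linear axis from 0), with 1 point per library, heat left of control, and the group mean ± SD (n = 3) as bars. The heat and control points separate fully for CLPX, DNAJA3 and LONP1, and they overlap for the other 6 genes.

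HSPD1 and HSPE1, which work as ring and lid of the same chaperonin, lie side by side on chromosome 15 of Sscrofa11.1. HSPD1 spans 101360355 to 101373498 and HSPE1 spans 101374019 to 101376146, with 520 bases and no annotated RefSeq gene between them. In mammals the pair is known to be transcribed in opposite directions from a shared promoter region.

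HSPD1 reached 323, 331 and 378 CPM in heat 1, 2 and 3, against 278, 385 and 314 CPM in control 1, 2 and 3. Values below are listed in this order of libraries. The groups overlapped, and the highest value was that of control 2. Heat minus control came to a log2 fold change of 0.08 ± 0.32 (SE), with a 95% interval of -0.67 to 0.82 (edgeR adjusted p = 0.883). On the linear scale that interval runs from 0.629-fold to 1.77-fold.

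HSPE1 stood at 46.5, 44.0 and 86.5 CPM in heat, against 30.4, 51.0 and 55.1 CPM in control. Heat 3 stood well above all other libraries, while heat 1 and heat 2 lay below control 2 and control 3. Its log2 fold change was 0.37 ± 0.39 (SE), with a 95% interval of -0.53 to 1.28 (edgeR adjusted p = 0.515), and it was -0.02 without heat 3. In human both genes have many processed pseudogenes, and the sources used here do not say how the authors' counting divided shared reads, so small differences in either gene are uncertain.

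The balance of ring and lid was followed within each library as the log2 ratio of HSPD1 to HSPE1 reads. It was 2.80, 2.91 and 2.13 in heat and 3.19, 2.92 and 2.51 in control, so the groups overlapped. The difference of means was -0.26 (exact permutation test, two-sided, p = 0.5, n = 3 each), and it was 0.14 with heat 3 and control 1 both left out. Across the 6 libraries the log2 CPM of HSPE1 followed that of HSPD1 with a Pearson r of 0.77, given as a description, since the libraries share their groups and near-identical pairs.

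By the same measure, the 5 named genes most like HSPD1 over the 6 libraries were CCDC167 (r = 0.97), ZBTB33, a methyl-CpG-binding repressor (r = 0.95), C4orf46 (r = 0.94), CDC42SE2 (r = 0.94) and CSTF2T, a polyadenylation factor (r = 0.94). None of the other chaperones or proteases was among them.

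HSPA9 lies on chromosome 2 at 140515239 to 140532164. The heat libraries held 284, 288 and 299 CPM, against 329, 310 and 270 CPM in control. Each heat value fell inside the range of the controls. On the log2 scale the fold change was -0.06 ± 0.31 (SE), with a 95% interval of -0.77 to 0.64 (edgeR adjusted p = 0.902).

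DNAJA3 (also called Tid1), the J protein that stimulates HSPA9, lies on chromosome 3 at 37883233 to 37919141. Heat libraries had 16.2, 13.3 and 17.9 CPM of it, and control libraries averaged 11.3 ± 0.209 CPM (SD, n = 3). Every heat library lay above every control. The log2 fold change was 0.49 ± 0.27 (SE), with a 95% interval of -0.14 to 1.12 (edgeR adjusted p = 0.237). Groups that do not overlap were common, at 37.8% of all tested genes, with heat above control in 20.9% and below it in 16.8%. Among the 9 genes, heat was above control in 2 and below it in 1.

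The log2 ratio of DNAJA3 to HSPA9 reads was -4.13, -4.44 and -4.06 in heat and -4.88, -4.80 and -4.55 in control. The ratio was higher in every heat library, by 0.53 on average, and the exact permutation p of 0.1 is the smallest that 3 against 3 libraries allow.

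TRAP1, the mitochondrial HSP90, lies on chromosome 3 at 38536710 to 38595273. The heat libraries held 15.2, 16.3 and 24.2 CPM, against 19.6, 13.4 and 15.7 CPM in control. The highest heat value was that of heat 3 and the highest control value that of control 1, and the groups overlapped. Its log2 fold change was 0.20 ± 0.32 (SE; edgeR adjusted p = 0.679), and it was -0.06 without heat 3.

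CLPB, which in human is a disaggregase of the intermembrane space, lies on chromosome 9 at 6836367 to 7089896. The heat libraries held 8.38, 8.37 and 11.2 CPM, against 13.2, 5.72 and 5.85 CPM in control. Control 1 was the highest of all libraries, while control 2 and control 3 were the lowest. On the log2 scale the fold change was 0.18 ± 0.41 (SE; edgeR adjusted p = 0.774). It was 0.66 without control 1 (edgeR adjusted p = 0.108), and with heat 3 also left out it was 0.51 and passed the test (edgeR adjusted p = 0.00935). That smaller fit holds only the near-identical pair of each group and called 79.6% of all genes it tested, 41.2% higher and 38.4% lower.

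LONP1, the main ATP-dependent protease of the matrix, lies on chromosome 2 at 73266310 to 73286774. The heat libraries held 31.4, 29.8 and 31.2 CPM, against 26.6, 27.1 and 26.2 CPM in control. Heat was above control without overlap, and the spread within a group was small, with means of 30.8 ± 0.876 CPM in heat and 26.6 ± 0.446 CPM in control (SD, n = 3). The log2 fold change was 0.21 ± 0.25 (SE), with a 95% interval of -0.38 to 0.80 (edgeR adjusted p = 0.578). The SE comes from a dispersion shared with other genes of like abundance and is wider than the spread of these 6 values. LONP1 and DNAJA3 were alike across the 6 libraries, with a Pearson r of 0.94 as a description.

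ClpXP is built from the unfoldase CLPX, which selects and unwinds substrates and in vertebrates also takes part in heme synthesis, and the barrel-shaped peptidase CLPP. CLPX lies on chromosome 1 at 163173887 to 163222067. The heat libraries held 28.5, 25.2 and 52.7 CPM, against 69.3, 100 and 92.7 CPM in control. The highest heat library, heat 3, was still below the lowest control, control 1. The means were 35.4 ± 15.0 CPM in heat and 87.4 ± 16.1 CPM in control (SD, n = 3).

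The log2 fold change of CLPX was -1.30 ± 0.37 (SE), with a 95% interval of -2.17 to -0.43, or 0.406-fold with an interval of 0.223 to 0.740. The unadjusted p was 0.00874 and the edgeR adjusted p 0.0602, just outside the threshold. It was below the threshold with DESeq2 (adjusted p = 0.00556) and in 9 of 19 alternatives in all, whose log2 fold changes ran from -1.87 to -1.10. The edgeR adjusted p was 0.0313 without control 1 and 0.0105 without heat 3, fits that called 31.9% and 36.1% of all genes tested. It was 0.206 without control 2 and 0.187 without control 3, fits that called no gene. It was 0.206 without heat 1 and 0.198 without heat 2, fits that called 0.0475% and 0.0406% of all genes. With the near-identical libraries summed it was 0.539, where 2 genes were called higher and none lower. The sign was negative in all 19 of these fits.

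CLPP, on chromosome 2 at 72707363 to 72713481, had few reads, with 39, 29 and 57 in heat and 18, 55 and 40 in control. These were 1.94, 1.35 and 1.74 CPM in heat, against 1.20, 2.40 and 1.98 CPM in control. The groups overlapped, and control held both the lowest and the highest library. Its log2 fold change was -0.16 ± 0.43 (SE), with a 95% interval of -1.15 to 0.84 (edgeR adjusted p = 0.816). On the linear scale that interval runs from 0.450-fold to 1.79-fold, and on the log2 scale it is the widest of the 9.

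The log2 ratio of CLPX to CLPP reads was 3.85, 4.20 and 4.91 in heat and 5.81, 5.37 and 5.53 in control. It was lower in every heat library, a difference of -1.25 (exact permutation p = 0.1, the smallest possible here). The log2 ratio of CLPP to LONP1 was -4.00, -4.44 and -4.15 in heat and -4.43, -3.49 and -3.71 in control, and these overlapped (exact permutation p = 0.3).

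Most mitochondrial chaperones have a relative in the cytosol or in the endoplasmic reticulum (ER). Within each library, ratios were taken against HSPA8, HSPA5, HSP90AA1, HSP90B1 and TCP1, but not against HSPH1, HYOU1 or DNAJA1. Of these 8 genes, chosen as counterparts, 2 rose while 6 did not pass and none fell. The same test called 6.71% of all tested genes higher and 4.32% lower. The median log2 fold change of the 8 was 1.23, against 0.18 for the mitochondrial genes and 0.05 for all tested genes. Those that rose were HSPA5 (BiP), the HSP70 of the ER, and HSPH1, an exchange factor of cytosolic HSP70. HSPH1 had a log2 fold change of 3.59 ± 0.47 and HSPA5 one of 3.31 ± 0.73 (SE; edgeR adjusted p = 0.0266 and 0.0385). Without heat 1, heat 2, control 2 or control 3 the test called none of the 8. Of all genes it called 0.0475% without heat 1, 0.0406% without heat 2 and none without control 2 or control 3. DESeq2 called 6 of the 8 higher, against 14.9% of all tested genes. With heat 3 and control 1 both left out 7 were higher and TCP1 was lower, against 41.2% of all genes higher and 38.4% lower.

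**Figure D2:**
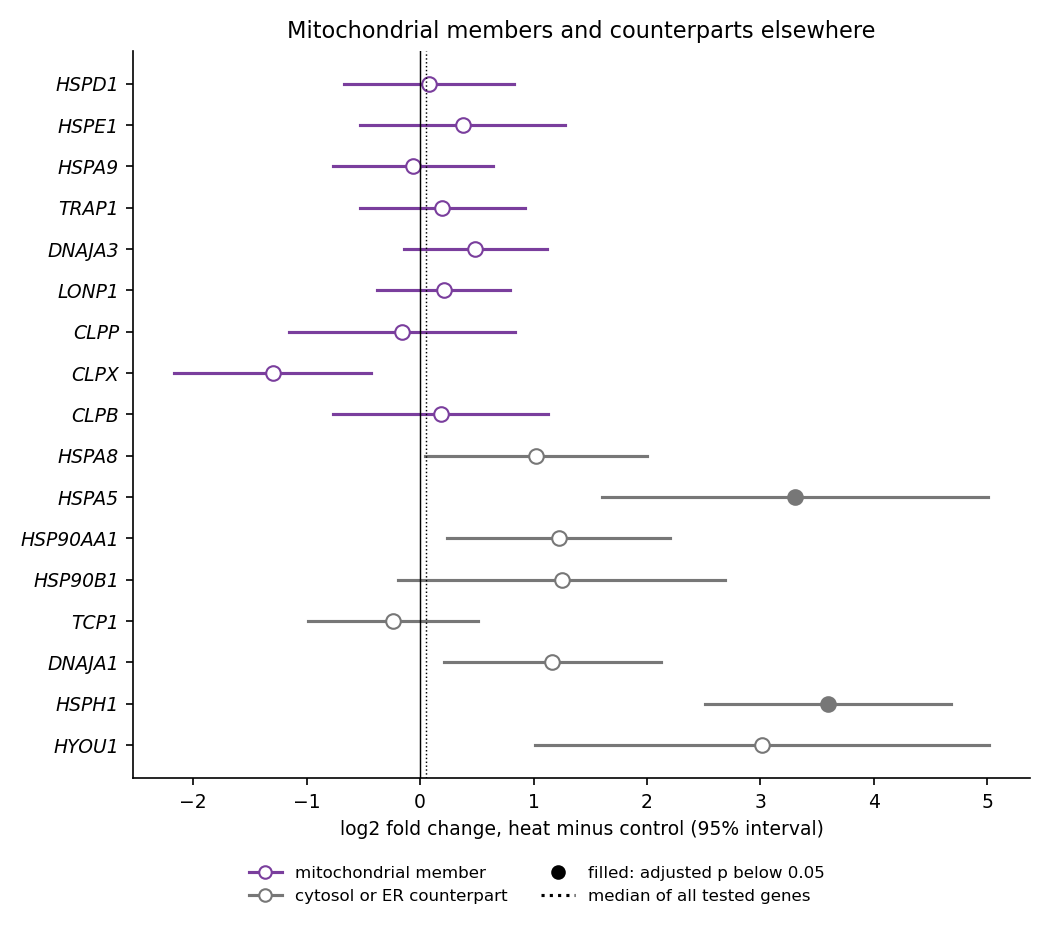
Log2 fold changes, heat minus control, with 95% intervals from the edgeR fit (n = 3 each), for the 9 mitochondrial genes (purple) and 8 counterparts (grey), filled where the adjusted p was below 0.05. All purple intervals but that of CLPX include 0, and among the grey ones HSPA5 and HSPH1 are filled.

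HSPA9 and HSPA8, the constitutive HSP70 of the cytosol, separated by group. Their log2 ratio was -3.08, -3.05 and -3.69 in heat and -2.01, -2.28 and -2.39 in control. Every heat library was lower, a difference of -1.05 (exact permutation p = 0.1, the smallest possible). The ratio holds no gene length, so its change between groups can be read, but not its level.

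Against HSPA5 the change was larger. The log2 ratio of HSPA9 to HSPA5 was -5.68, -5.54 and -3.38 in heat and -2.21, -1.51 and -1.42 in control, a difference of -3.15 (exact permutation p = 0.1). Heat 3 lay between the other heat libraries and the controls.

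For TRAP1 the cytosolic counterpart is HSP90AA1, the inducible HSP90. The log2 ratio was -8.40, -8.30 and -7.51 in heat and -6.55, -7.48 and -7.04 in control. The difference was -1.04, and heat 3 lay only just below control 2 (exact permutation p = 0.1). Against HSP90B1, the HSP90 of the ER, the difference was -1.01 and the groups overlapped (exact permutation p = 0.3).

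HSPD1 was set against TCP1, a subunit of the cytosolic chaperonin CCT. The log2 ratio was 1.20, 1.11 and 0.74 in heat and 0.52, 0.80 and 0.66 in control. Heat 3 lay below control 2, and the difference of 0.36 had an exact permutation p of 0.2. TCP1 itself had a log2 fold change of -0.24 ± 0.33 (SE; edgeR adjusted p = 0.626). Over the 9 ratios computed, the smallest Benjamini-Hochberg adjusted exact permutation p was 0.18, so none passed.

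**Figure D3:**
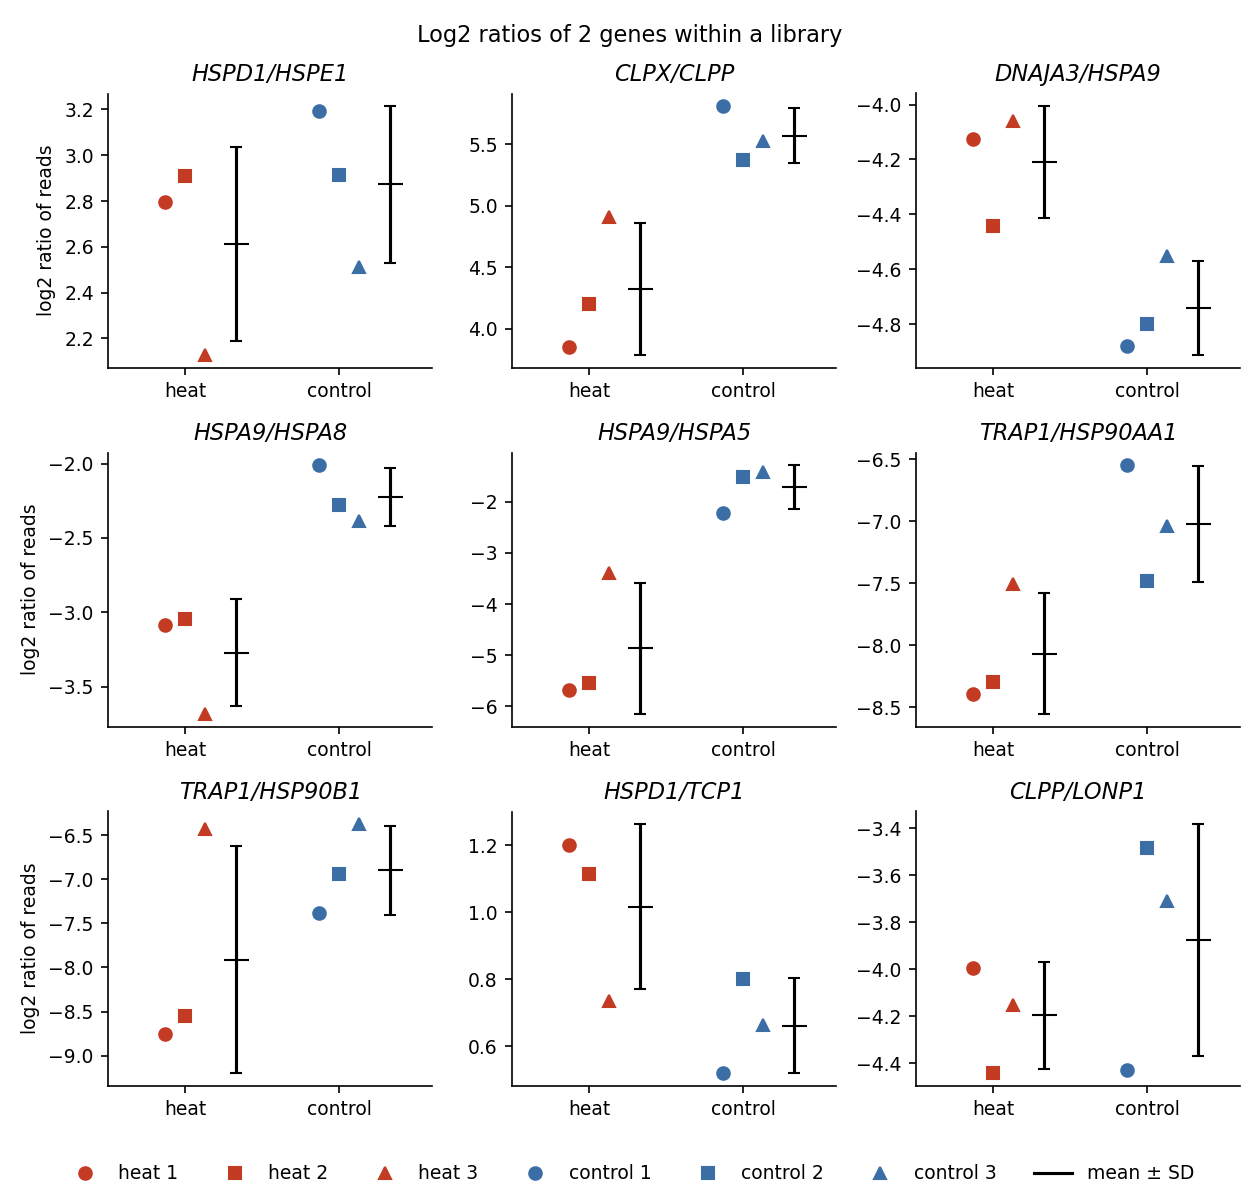
Log2 ratio of the reads of 2 genes within each library, 1 point per library with heat left of control, and the group mean ± SD (n = 3); axes do not start at 0. The groups separate for CLPX/CLPP, DNAJA3/HSPA9, HSPA9/HSPA8, HSPA9/HSPA5 and TRAP1/HSP90AA1, and overlap for the other 4.

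The remaining machinery of mitochondrial protein handling was examined as lists. Of 13 tested co-chaperones and assembly factors none passed in DESeq2 or in edgeR over all 6 libraries without a block. An unadjusted p below 0.05 was found for 1, against 33.9% of all tested genes, and the median log2 fold change was -0.11. With the replicate number as a block, 1 was called lower, where 1300 of all 14242 tested genes were called lower. Without control 1 edgeR called 1 lower, against 12.3% of all genes, and without heat 3 it called 4 lower, against 17.7%. The members with the highest means were ATPAF1, an assembly factor of ATP synthase (24.6 ± 6.46 CPM in heat and 26.6 ± 1.80 CPM in control), and DNAJC11 (16.4 ± 5.06 CPM in heat and 14.5 ± 2.14 CPM in control; SD, n = 3). With heat 3 and control 1 left out, 6 of the 13 were lower and none higher, against 38.4% of all genes lower and 41.2% higher.

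Of 17 other proteases and scaffolds, 1 rose, none fell and 16 did not pass, with a median log2 fold change of -0.10. Among all tested genes 6.71% were called higher and 4.32% lower. The gene that rose was XPNPEP3, an aminopeptidase found in mitochondria. The heat libraries held 33.1, 33.5 and 32.9 CPM, against 15.7, 14.8 and 15.5 CPM in control. The groups were far apart relative to their spread, and the log2 fold change was 1.12 ± 0.26 (SE; edgeR adjusted p = 0.0404). DESeq2 called 3 of the 17 higher and 3 lower, near the 14.9% and 12.6% of all tested genes. Without heat 3 and control 1 edgeR called 6 higher and 9 lower, against 41.2% of all genes higher and 38.4% lower.

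Of 24 tested genes of protein import, 1 rose, none fell and 23 did not pass, with a median of -0.11. The shares of all tested genes were 6.71% higher and 4.32% lower. TOMM40, the pore of the outer membrane translocase, stood at 20.5, 22.6 and 23.7 CPM in heat, against 9.35, 10.7 and 10.4 CPM in control. All heat libraries lay above all controls, with a log2 fold change of 1.13 ± 0.26 (SE; edgeR adjusted p = 0.0413). Without heat 3 and control 1, 4 of the 24 were higher and 14 lower, against 41.2% higher and 38.4% lower of all genes. Only the share called in either direction was near the 79.6% of all genes. The median log2 fold change of the 24 was -0.69 in that fit, against 0.06 for all genes. This was the lowest of all alternatives. The median was positive without control 3 (0.06) and with the near-identical libraries summed (0.05), and negative in all other fits.

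Of 21 regulators of the mitochondrial stress response and of mitochondrial gene expression, 3 rose, none fell and 18 did not pass. Among all tested genes 6.71% were called higher and 4.32% lower. The median log2 fold change of the regulators was 0.77. DELE1, which relays mitochondrial stress to the integrated stress response, stood at 12.4, 15.2 and 9.96 CPM in heat, against 5.61, 5.76 and 5.36 CPM in control (log2 fold change 1.16 ± 0.30 SE; edgeR adjusted p = 0.0483). It passed in 9 of 19 alternatives.

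FOXO3, a stress-responsive transcription factor, stood at 92.1, 83.7 and 56.4 CPM in heat, against 36.8, 19.6 and 17.4 CPM in control (log2 fold change 1.66 ± 0.40 SE; edgeR adjusted p = 0.0421). KDM6B, a histone H3K27 demethylase whose worm relative is known to act in the mitochondrial unfolded protein response, stood at 19.8, 21.0 and 5.68 CPM in heat, against 4.81, 1.66 and 1.54 CPM in control (log2 fold change 2.55 ± 0.66 SE; edgeR adjusted p = 0.0483). For both, heat 3 and control 1 were the nearest libraries of the 2 groups. DESeq2 called 9 of the 21 regulators higher and 2 lower, against 14.9% and 12.6% of all tested genes. Without heat 3 and control 1 edgeR called 14 higher and 6 lower, against 41.2% and 38.4%, and nothing particular to regulators is read from these counts.

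ATF5, a transcription factor of the mitochondrial unfolded protein response in mammals, stood at 6.83, 6.00 and 8.16 CPM in heat, against 3.54, 4.37 and 4.86 CPM in control. It did not pass (edgeR adjusted p = 0.159). Every heat library was above every control, as in 12 of the 21 regulators in all and 20.9% of all tested genes. Heat was below control without overlap in 3 of the 21 and in 16.8% of all tested genes. XPNPEP3, TOMM40, DELE1, FOXO3 and KDM6B all missed the threshold without heat 1, without heat 2, without control 2 or without control 3. Their edgeR adjusted p-values there were between 0.156 and 0.194, in fits that called at most 0.0475% of all genes. Of 6 markers of the ovarian surface epithelium 4 matched, and the 2 tested, KRT8 and UPK3B, were called higher in heat. The summed level was low (9.28 to 13.3 CPM in heat and 1.70 to 5.14 CPM in control). KRT18 and UPK3B averaged below 1 CPM, and EPCAM was at 0 throughout. Of the oocyte markers 4 of 5 matched, ZP2 and ZP3 were at 0 throughout, and the 1 tested, GDF9, was also called higher, with 18.5, 19.2 and 9.41 CPM in heat, against 6.48, 6.07 and 5.16 CPM in control (log2 fold change 1.41 ± 0.36 SE; edgeR adjusted p = 0.0477). The part of either marker list in these results was not tested.

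Of 7 steroidogenic proteins of mitochondria and known LONP1 substrates none passed in edgeR over all 6 libraries. An unadjusted p below 0.05 was found for 2, against 33.9% of all tested genes. DESeq2 called 1 lower (TFAM), against 12.6% of all tested genes. Leaving out heat 3, edgeR called CYP11A1 higher and FDX1 and TFAM lower, against 18.4% of all genes higher and 17.7% lower. Leaving out control 1 it called TFAM lower, against 12.3% of all genes. Leaving out both it called CYP11A1 higher and FDX1, TFAM and TSPO lower, against 41.2% of all genes higher and 38.4% lower. TFAM, which packages mitochondrial DNA and is degraded by LONP1 in human cells, stood at 24.6, 29.0 and 47.1 CPM in heat, against 47.5, 86.8 and 71.4 CPM in control (log2 fold change -1.03 ± 0.38 SE; edgeR adjusted p = 0.103). Heat 3 lay just below control 1. CYP11A1, the enzyme of mitochondria that makes pregnenolone, stood at 69.6, 68.6 and 57.6 CPM in heat, against 29.0, 44.0 and 36.3 CPM in control (log2 fold change 0.84 ± 0.29 SE; edgeR adjusted p = 0.0906). STAR, a LONP1 substrate in steroidogenic cells, stayed below 1 CPM in every library.

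**Figure D4:**
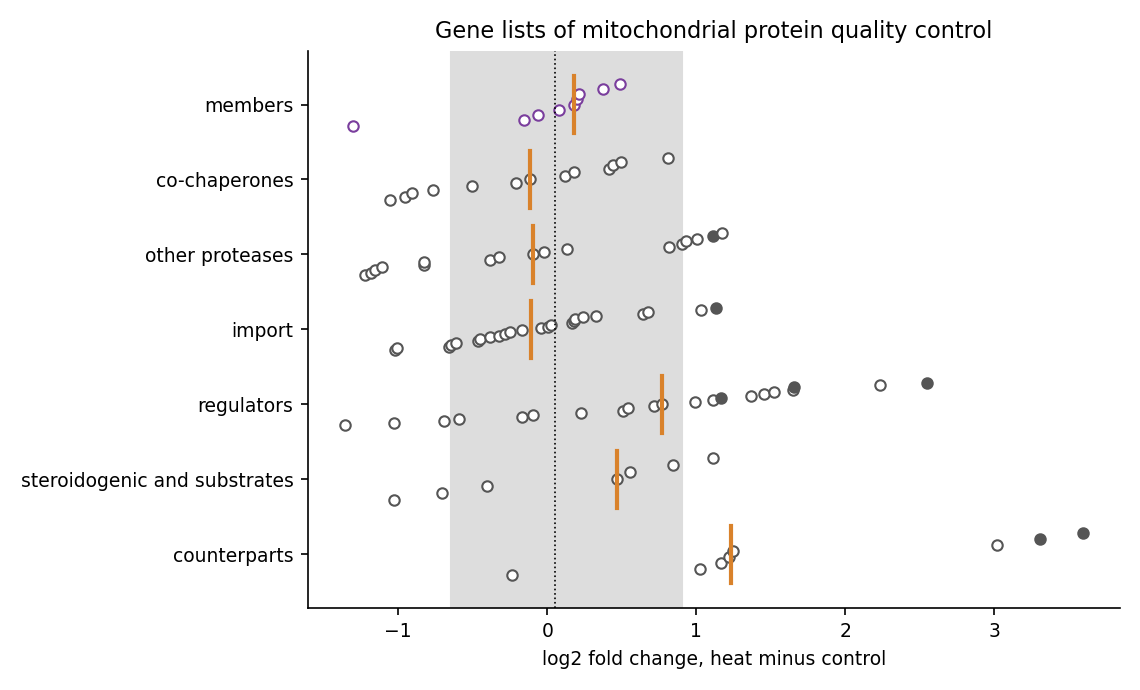
Log2 fold changes, heat minus control, of the tested genes of each list, 1 point per gene, filled where the edgeR adjusted p was below 0.05, with the list median as an orange bar. The grey band spans the quartiles of all 14242 tested genes (-0.65 to 0.90) and the dotted line their median of 0.05; CLPX is the only mitochondrial chaperone or protease of the top row outside the band.

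Reads of the mitochondrial genome took a smaller share in every heat library than in any control. The 13 mitochondrially encoded protein genes took 7.94, 7.49 and 5.04% of the counts in heat 1, 2 and 3 and 25.3, 14.3 and 12.4% in control 1, 2 and 3. Counted over the remaining reads only, the 9 chaperone and protease genes took 0.0799, 0.0863 and 0.105% in heat and 0.0833, 0.107 and 0.0976% in control. The groups overlapped on this scale as well. The 95% Wilson intervals of these shares, which cover counting error only, reached at most 0.00151 percentage points to either side for the 9 genes and 0.0197 for the mitochondrial genome.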

How the data were processed

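The samples were 6 mRNA libraries of pig granulosa cells, 3 heat and 3 control. Per the submitters' processing notes, FastQC 0.11.4, Trim Galore and STAR were used with Sscrofa11.1. The sources used here name neither the counting tool nor the annotation release. In the first deposited table the authors give raw read counts for each Ensembl gene. A second deposited table holds a signal, those counts for 13298 genes divided by the authors' size factor per library. Multiplying back gave whole reads for 100% of values (tolerance 1e-06).

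Symbols came from a reference table, and coordinates from RefSeq (Sscrofa11.1) by symbol. No sequences were used. Genes were kept by filterByExpr (minimum count 10) and tested with edgeR 4.0.16 in R 4.3.3 (TMM, robust quasi-likelihood F test, two-sided), adjusted by Benjamini-Hochberg over 14242 genes and called below 0.05. The SE was taken as the size of the log2 fold change over the root of F, and 95% intervals use it. Ratios added 0.5 to each count.

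The chaperone and protease genes and all lists were chosen with earlier results of these data known. Named were all 9 matched genes, the counterparts, and from each list up to 4 called genes or the 2 of highest mean. ATF5, STAR, INHBA, LYZ, PTPRC, GDF9, FDX1 and TSPO were named after their values were seen. Alternatives were DESeq2 1.42.0, limma 3.58.1 (voom, and the signal with pseudocounts of 1 and 0.5), other scalings, filters and thresholds, the replicate number as a block, and leaving out libraries. Added after seeing the data were fits without heat 3 and control 1, with near-identical libraries summed, and on recovered reads, which called 981 genes higher and 650 lower. The edgeR test was checked on simulated data, with 50 changed genes per fold. It called 0% of 2-fold, 36% of 4-fold, 94% of 8-fold and 98% of 16-fold changes, with 5 false calls. These shares vary with the random draw. The simulated libraries were drawn independently, without near-identical pairs, and few genes were changed, so the shares need not hold for the data.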

Additional observations from a re-analysis of the deposited data

How the results depend on the processing

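As reported, edgeR called 956 genes higher and 615 lower in heat, and none of the 9 chaperone and protease genes. CLPX alone was called with upper-quartile factors, the 10 CPM filter, DESeq2, the replicate block and limma on the deposited signal with either pseudocount (1 gene each). Genes higher and lower numbered 2118 and 1792 with DESeq2, 532 and 396 with the 10 CPM filter, and 9 and 1 at an adjusted p below 0.01. They numbered 1583 and 416 with library totals, where the median log2 fold change of all genes was 0.17, and 1607 and 850 with no filter. Leaving out each library in turn gave 0 to 3021 genes higher, 0 to 2713 lower and 0 to 1 of the 9 called. With heat 3 and control 1 both left out, these were 6285, 5857 and 3 (CLPX, DNAJA3 and CLPB), and with the near-identical libraries summed 2, 0 and 0. The cause of these differences was not tested.

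Deviations of same-numbered libraries from their group means correlated at 0.35, -0.28 and 0.29. Because each group holds a near-identical pair, these values depend on each other. They cannot decide whether the replicate numbers pair the libraries. The replicate block gave 2104 genes higher and 1300 lower. Small fold changes switched sign. HSPA9 was 0.068 with library totals and 0.070 with the 10 CPM filter. With heat 3 and control 1 left out, HSPD1 was -0.12, HSPE1 -0.25 and the log2 ratio HSPD1/HSPE1 0.14. Leaving out each library in turn, the log2 fold change ran from -0.048 to 0.19 for HSPD1, -0.024 to 0.55 for HSPE1, -0.058 to 0.33 for TRAP1, -0.41 to 0.037 for CLPP and -0.048 to 0.66 for CLPB. CLPX, DNAJA3 and LONP1 kept their sign in every alternative that held them, and the other 8 ratios kept theirs. The planned ratio of GRPEL1 to HSPA9 was not run. A gene that was not called may still differ.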
